A study of Mus musculus with 4 samples.

Results

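The genes described here are the nuclear genes that encode the subunits of the mitochondrial respiratory chain and of ATP synthase. They were taken from a table of 18560 genes by symbol, as the Nduf, Sdh, Uqcr, Cox4 to Cox8 and Atp5 families together with Cyc1 and Cycs. The rule found 86 genes, 1 pseudogene (Ndufa11b) was dropped, and 85 of 18560 remained. They comprised 36 genes of complex I, 4 of complex II, 9 of complex III, the cytochrome c gene Cycs, 18 of complex IV, 16 of complex V and Atp5s, the gene of factor B of ATP synthase. Ndufa4 and Ndufa4l2 were placed in complex IV, where the Ndufa4 protein is now assigned. The subunits that mitochondrial DNA encodes, and Ndufab1, do not match the rule and were not analysed here.

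Gene expression was measured by RNA-seq in 4 libraries of mouse splenic CD4+ T cells on the C57BL/6 strain. Naive cells had been stimulated with antibodies against CD3 and CD28, which yields Th0 cells, activated helper T cells that are not steered to an effector type. The 2 wild type libraries carried the numbers 1 and 6 (WT 1 and WT 6). The 2 knockout libraries carried the numbers 9 and 12 (KO 9 and KO 12) and the genotype Setd2-CD4 cre, a Setd2 deletion by a Cre recombinase under Cd4 control. Setd2 methylates lysine 36 of histone H3. Cre under Cd4 control acts during thymic development, so deletion precedes the stimulation and is not limited to CD4+ cells. The titles carry the number 48, the design text speaks of 2 days of stimulation and the treatment labels of 3 days. Whether each library stems from its own animal is not in the labels, and the p-values reflect only how these samples scatter, be it technical or not.

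The respiratory chain moves electrons from NADH, through complex I, or from succinate, through complex II, to ubiquinone, then through complex III and cytochrome c to complex IV, which reduces oxygen. Complexes I, III and IV pump protons, and complex V, the ATP synthase, uses the gradient to make ATP. T cells build up this machinery when they leave the resting state, and many of its nuclear genes have binding sites for the factor NRF1 near their start sites.

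Most of the genes were short, and some had promoter letters in common, which are shown first. The part of these letters in the levels across the libraries was not tested. RefSeq (GRCm38.p6) gave a promoter window of 300 bases, 250 before to 50 after the start, for 68 of the 85 genes. The NRF1 letters (GCGCA, then any base, then GCGC), searched on both strands, occurred in 17 of these 68 (25%), against 11.3% of the 10244 genes tested that had a window and 4.6% of all 32851 windows. Of the genes with a window, 7 of 31 in complex I held the letters, 2 of 3 in II and 1 of 5 in III. In complex IV it was 1 of 13 and in complex V 6 of 14. In the stretches of 30 bases below, on the gene's strand from 5′ to 3′, capitals mark these letters.
Ndufa11 (complex I, chr17:56717692-56717721, plus strand): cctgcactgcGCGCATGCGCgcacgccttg
Ndufa6 (complex I, chr15:82354249-82354278, minus strand): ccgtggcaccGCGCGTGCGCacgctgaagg
Sdhd (complex II, chr9:50603909-50603938, minus strand): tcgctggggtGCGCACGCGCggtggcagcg
Sdha (complex II, chr13:74350231-74350260, minus strand): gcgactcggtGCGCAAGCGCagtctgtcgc
Uqcrc1 (complex III, chr9:108936668-108936697, plus strand): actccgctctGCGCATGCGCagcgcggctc
Cox6a1 (complex IV, chr5:115349101-115349130, minus strand): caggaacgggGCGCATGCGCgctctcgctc
Atp5g2 (complex V, chr15:102671070-102671099, minus strand): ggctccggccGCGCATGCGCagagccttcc
Atp5k (complex V, chr5:108434430-108434459, minus strand): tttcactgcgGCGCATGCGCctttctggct

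The first matched base lay at -60 in Ndufa11, at 24 in Ndufa6, -79 in Sdhd, -10 in Sdha, 31 in Uqcrc1, -162 in Cox6a1, -42 in Atp5g2 and -50 in Atp5k, counted from the start site. Sdha has further matches at -55 and -98, and Cox6a1 has one more at -117. The set holds genes with a positive difference between knockout and wild type (Ndufa11, Cox6a1, Atp5k) and the genes of lowest difference in complexes I and II (Ndufa6 and Sdha). Over the 17 genes with the letters the median log2 fold change of knockout over wild type was 0.52, from -0.24 to 0.81, and over the 50 tested genes with a window but without them it was 0.46.

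The bases before the start are printed for Cycs, the subunit gene with the smallest p outside complex I, and for Cox6a1, the gene with the smallest p in complex IV. Capitals mark the letters TGACGTCA (a cAMP response element, CRE), GCATGCGC (a shorter NRF1 form that can overlap the longer one) and the NRF1 letters given above.
Cycs (chr6:50566570-50566819, minus strand): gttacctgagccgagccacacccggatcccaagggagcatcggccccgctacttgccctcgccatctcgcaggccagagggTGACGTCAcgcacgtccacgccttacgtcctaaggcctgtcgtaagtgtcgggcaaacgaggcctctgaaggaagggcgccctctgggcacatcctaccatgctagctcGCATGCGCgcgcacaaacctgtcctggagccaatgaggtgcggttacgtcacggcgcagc
Cox6a1 (chr5:115348959-115349208, minus strand): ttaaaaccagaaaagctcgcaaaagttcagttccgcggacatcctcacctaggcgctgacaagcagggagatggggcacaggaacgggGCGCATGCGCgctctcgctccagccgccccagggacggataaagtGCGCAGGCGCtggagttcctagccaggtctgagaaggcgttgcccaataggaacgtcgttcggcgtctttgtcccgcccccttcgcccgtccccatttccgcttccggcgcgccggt

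In Cycs the CRE letters began at -169 and the shorter NRF1 form at -60, and the longer form had no match in its window. The CRE letters occurred in 5 of the 68 genes (7.4%, against 3.5% of genes tested). The shorter NRF1 form occurred in 11 (16.2% against 5.8%), and YY1 letters, AAGATGGC, in 10 (14.7% against 5.2%). ETS letters, CCGGAAGT, occurred in 5 (7.4% against 9.1%), GC box letters, GGGCGG, in 28 (41.2% against 66.5%) and CAAT box letters, CCAAT, in 30 (44.1% against 43.4%). For 65 of 73 windows the last 25 bases were found in an annotated transcript of the same gene. A match describes the letters of a window and does not show that a factor binds there.

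Each library held between 17284613 and 20418766 counts. Values within a gene are given as CPM, counts relative to a library size corrected by TMM, and levels between genes are FPKM, which also divides by gene length. Of 12816 genes tested with edgeR's quasi-likelihood test, 1 was higher in knockout libraries at an adjusted p under 0.05 and 0 were lower, and at an unadjusted p under 0.05 there were 799 and 734. Setd2 itself stood at 157 CPM in WT 1, 174 in WT 6, 127 in KO 9 and 113 in KO 12 (log2 fold change -0.47, SE 0.21, edgeR adjusted p 0.421). A gene-level count cannot check a deletion of some exons. The 6 T cell markers were all detected and summed to 2509 CPM in WT 1, 2523 in WT 6, 2008 in KO 9 and 2313 in KO 12, with a median log2 fold change of -0.30. For 4 of the 6 both knockout libraries were lower (24.3% of all genes tested), and the part of this difference in the subunit levels was not tested. The CD8 markers Cd8a and Cd8b1 summed to 260.0 CPM in WT 1, 330.4 in WT 6, 432 in KO 9 and 323 in KO 12, so cells with CD8 transcripts were present in all 4.

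Over the respiratory chain genes both knockout libraries carried more transcript than either wild type library, and no single gene passed the test. The subunits summed to 8711 CPM in WT 1, 6855 in WT 6, 9359 in KO 9 and 11644 in KO 12. This was 0.871%, 0.723%, 0.933% and 1.1% of the unscaled counts of these libraries. The mean sum was 7783 ± 1312 CPM in wild type and 10502 ± 1616 CPM in knockout libraries (SD, n = 2 each), a ratio of 1.35. The sums did not overlap between genotypes, but the distance from WT 1 to KO 9 was smaller than that within either genotype. In such bulk samples, fewer cells of a type and less RNA per cell cannot be told apart.

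**Figure D1:**
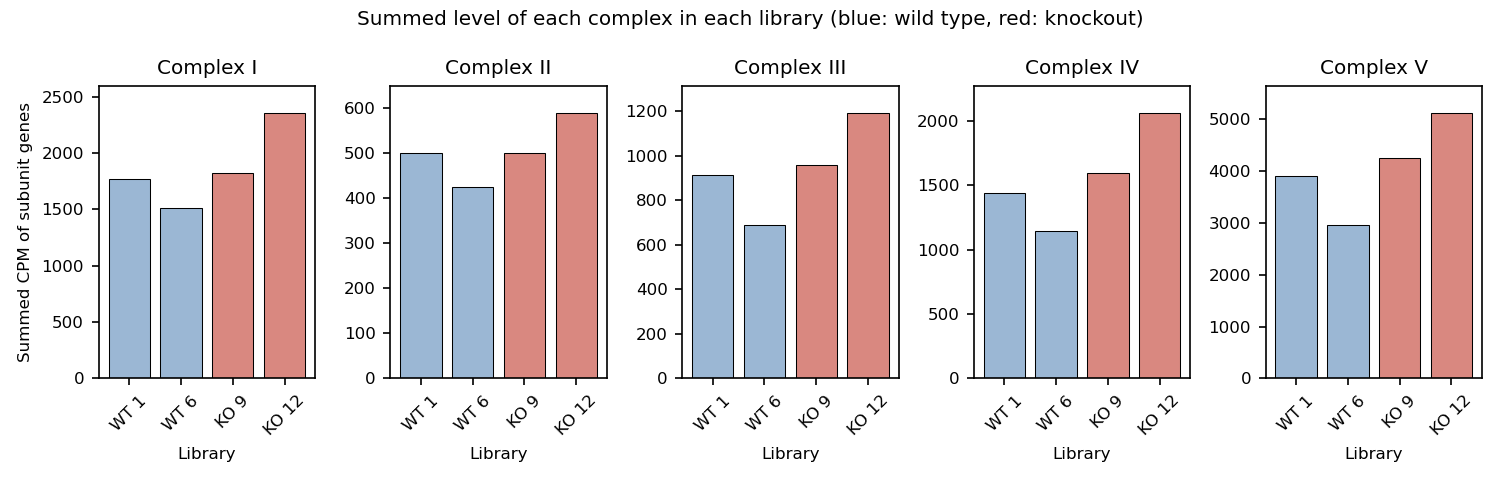
Summed CPM of the subunit genes of complexes I to V (vertical axes, from 0, a separate scale for each complex) in each library (1 bar per library, blue wild type, red knockout). WT 6 is the lowest and KO 12 the highest bar for every complex, with WT 1 and KO 9 close together between them.

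Of the 85 genes, 82 had enough counts to be tested, and Cox4i2, Cox8b and Ndufa4l2 did not. None of the 82 passed an adjusted p of 0.05 in edgeR (0.0078% of all genes tested were called higher and 0% lower), in DESeq2 (0.694% and 0.757%) or in limma-voom (0.0078% and 0%). The smallest adjusted p in edgeR was 0.412. At an unadjusted p under 0.05 edgeR had 13 of the 82 higher (6.23% of all genes) and 1 lower (5.73% of all genes). The log2 fold change was positive for 76 of the 82, against 49.8% of all genes tested, and its median was 0.46 against a median near 0 (-0.0024) over all genes. For 52 of the 82 (63.4%) KO 9 and KO 12 both lay above WT 1 and WT 6, against 25.4% of all genes, and for 1 (Cox6b2) both lay below, against 24.3% of all genes. For the other 29 the groups overlapped.

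The sizes stood close to the spread between libraries of a genotype. Over the 82 genes the median range between WT 1 and WT 6 was 0.387 on the log2 scale and that between KO 9 and KO 12 was 0.395, against a median SE of 0.243 for the fold change. For 29 of the 82 the fold change was larger than both ranges, and the share over all genes tested was not computed. WT 6 was the lowest of the 4 libraries for 71 of the 82 genes (33.1% of all genes) and KO 12 the highest for 77 (35.4% of all genes). Both held for 70 genes, against 23% of all genes. Compared with WT 1, the median log2 CPM difference over the 82 genes was -0.37 in WT 6, 0.05 in KO 9 and 0.46 in KO 12. WT 1 and KO 9 thus stood next to each other, and the extremes were 1 library of each genotype. KO 9 was above WT 1 for 54 of the 82 genes (65.9%, against 50.1% of all genes). The median log2 fold change was 0.28 without WT 6 and 0.22 without KO 12, and 0.64 without WT 1 and 0.65 without KO 9.

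**Figure D2:**
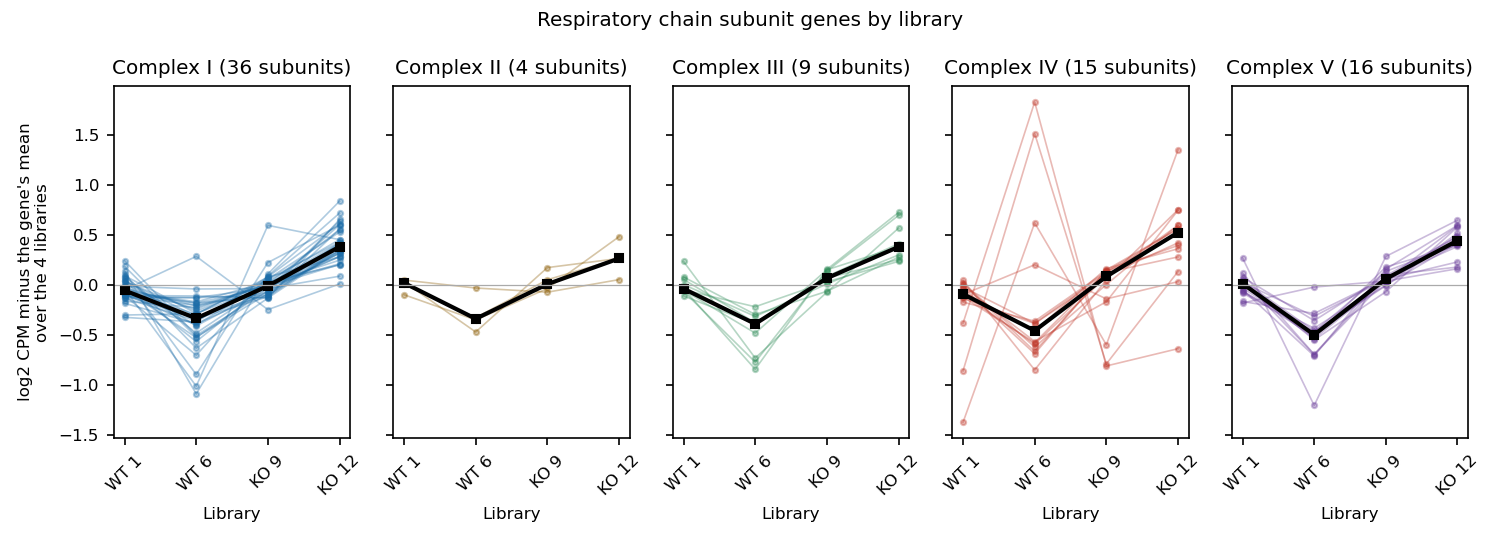
Log2 CPM of each subunit gene minus the gene's own mean over the 4 libraries (vertical axis), by library (horizontal axis), with 1 thin line per gene and black squares at the median of each complex. Most lines dip at WT 6 and end highest at KO 12, and the lines that peak at WT 6 in complex IV are those of Cox6a2, Cox6b2 and Cox7a2l.

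Markers of other cells differed between the same libraries. The B cell marker Cd79a stood at 45.6, 31.7, 42.9 and 68.6 CPM in WT 1, WT 6, KO 9 and KO 12, and Ms4a1 at 41.8, 18.3, 24.9 and 44.9 CPM, so WT 6 was lowest and KO 12 highest in both. The 4 myeloid markers were low and summed to between 10.4 CPM (KO 9) and 20.3 CPM (WT 6), the 3 natural killer cell markers to between 2.34 and 5.16 CPM, and the 4 globin genes to between 2.15 CPM (KO 9) and 19.8 CPM (WT 6). Hba-a1 was at 0 in WT 1 and KO 9, and Hbb-bt in KO 9. The part of these cells in the subunit levels was not tested.

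Complex I takes electrons from NADH. All 36 of its genes were tested, 35 had a positive log2 fold change, the median was 0.36, and in 20 the groups did not overlap, each time with knockout higher (25.4% of all genes tested). The 7 core catalytic subunits, which carry the flavin and the iron-sulfur clusters or help bind quinone, were all positive but small, from 0.18 (Ndufs1) to 0.50 (Ndufs7), with a median of 0.27. The 29 accessory subunits, which surround and stabilise that core, had a median of 0.40 and ran from -0.24 to 0.97. The core genes were longer, with a median effective length of 1534 bases against 610 for the accessory ones. With a trend on gene length removed, as described further on, the medians were 0.08 for core and 0.06 for accessory subunits. Without KO 12 the median of complex I was 0.15, and without KO 9 it was 0.57.

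Ndufb7 (gene 66916, chromosome 8, 83566758 to 83571623), an accessory subunit of the membrane arm, had the smallest p of all subunits. It stood at 50.2 CPM in WT 1, 48.6 in WT 6, 66.4 in KO 9 and 95.9 in KO 12. The wild type libraries were alike and both knockout libraries were higher, with KO 12 above KO 9 (log2 fold change 0.72, SE 0.24, edgeR p 0.0190, adjusted p 0.412). Without KO 12 its log2 fold change was 0.43. Ndufb4c (gene 100041273, chromosome 15, 73809449 to 73809933) had the highest fold change of the 82, at 8.34, 4.25, 12.9 and 11.7 CPM in WT 1, WT 6, KO 9 and KO 12 (log2 0.97, SE 0.38, edgeR p 0.0335, adjusted p 0.413). Knockout was higher in both libraries, but Ndufb4c is a near copy of Ndufb4. The expected counts of both lay up to 0.50 from a whole number, a sign that their reads were shared. Which genes shared these reads is not shown, and both values are uncertain. Ndufb4 stood at 22.03, 19.1, 23.8 and 39.0 CPM. Without WT 6 the log2 fold change of Ndufb4c was 0.56, and without WT 1 it was 1.53.

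Ndufb11 (gene 104130, chromosome X, 20615326 to 20617619), an accessory subunit, had the highest level per length in complex I, at 130.2 and 129.6 FPKM in WT 1 and WT 6 and 146 and 179 FPKM in KO 9 and KO 12. Its wild type libraries were within 1 FPKM of each other and both knockout libraries were above them (log2 fold change 0.40, SE 0.22, edgeR adjusted p 0.460, log2 0.21 without KO 12). Its exons overlap those of Rbm10. Ndufa6 (gene 67130, chromosome 15, 82350139 to 82354291), a member of the LYR protein family, was the 1 gene of complex I with a negative value. It stood at 43.7 and 55.2 CPM in WT 1 and WT 6 and 38.2 and 45.6 CPM in KO 9 and KO 12, so the groups overlapped (log2 -0.24, SE 0.23, edgeR adjusted p 0.643). Its log2 fold change was -0.06 without WT 6 and -0.10 without KO 9. It is among the genes that carry the NRF1 letters shown above.

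Complex II is also the enzyme succinate dehydrogenase of the citric acid cycle. The flavoprotein gene Sdha (gene 66945, chromosome 13, 74322255 to 74350240) was the most even of the set, at 205 and 194 CPM in WT 1 and WT 6 and at 189 and 206 CPM in KO 9 and KO 12. The groups overlapped and the difference was near 0 (log2 -0.02, SE 0.21, edgeR adjusted p 0.976), with a sign that changed when WT 1 or KO 9 was left out. Sdhb (gene 67680, chromosome 4, 140961271 to 140979198), the iron-sulfur subunit, stood at 115 CPM in WT 1, 96.3 in WT 6, 119.7 in KO 9 and 171 in KO 12. Both knockout values were higher, KO 9 by less than the wild type libraries differed (log2 0.46, SE 0.25, edgeR adjusted p 0.451, log2 0.19 without KO 12). Sdhd (gene 66925, chromosome 9, 50596340 to 50603849), a membrane anchor, stood at 86.9, 61.4, 95.9 and 102 CPM in the same order of libraries. WT 6 was the low one, and without it the log2 fold change was 0.19 in place of 0.42 (SE 0.24, edgeR adjusted p 0.464). The other anchor, Sdhc, had a log2 fold change of 0.31. Over the 4 genes 3 were positive and the median was 0.36, or 0.17 without WT 6 and 0.20 without KO 12.

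Complex III passes electrons from ubiquinol to cytochrome c. All 9 of its genes had positive values, the median was 0.45, and in 7 both knockout libraries were higher without overlap (25.4% of all genes tested). The 4 core and redox subunits, Uqcrc1, Uqcrc2, Cyc1 and Uqcrfs1, the Rieske iron-sulfur protein, had log2 fold changes of 0.50, 0.31, 0.52 and 0.27. Cyc1 (gene 66445, chromosome 15, 76343513 to 76346260), the cytochrome that hands electrons on, stood at 110.1 CPM in WT 1, 81.8 in WT 6, 127 in KO 9 and 149 in KO 12. Both knockout libraries were higher (SE 0.24, edgeR adjusted p 0.421), and without WT 6 the log2 fold change was 0.32.

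The small subunits of complex III held both ends of its range. Uqcr10 (gene 66152, chromosome 11, 4701968 to 4704344) had levels of 68.0, 38.9, 77.6 and 115 CPM in WT 1, WT 6, KO 9 and KO 12 (log2 fold change 0.85, SE 0.32, edgeR p 0.0308, adjusted p 0.413). Uqcr11 (gene 66594, chromosome 10, 80402997 to 80406821) stood at 29.6, 18.1, 34.0 and 49.97 CPM (0.82, SE 0.31, edgeR p 0.0297, adjusted p 0.413). In both genes WT 1 and KO 9 lay close together, WT 6 far below and KO 12 far above, and the log2 fold change was 0.50 and 0.51 without WT 6, and 0.54 and 0.52 without KO 12. Uqcrq (gene 22272, chromosome 11, 53427922 to 53430831) was lowest in the complex, at 111, 85.6, 100.5 and 127 CPM, with overlapping groups (0.21, SE 0.24, edgeR adjusted p 0.692, and 0.04 without WT 6 or without KO 12). The median of complex III was 0.19 without WT 6 and 0.22 without KO 12.

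Cycs (gene 13063, chromosome 6, 50562563 to 50566569) encodes somatic cytochrome c, the mobile carrier between complexes III and IV, which also triggers caspases when it leaves the mitochondrion. It stood at 181 CPM in WT 1, 117 in WT 6, 215 in KO 9 and 299 in KO 12. Both knockout libraries were higher, and the mean was 1.73-fold that of wild type (log2 0.79, SE 0.29, edgeR p 0.0255, adjusted p 0.413, DESeq2 adjusted p 0.181). Its log2 fold change was 0.51 without WT 6 and 0.54 without KO 12, and 1.13 without WT 1 and 1.03 without KO 9. At an effective length of 3080 bases it was the longest of the 82, which matters for the length comparison given further on. Its expected counts lay up to 0.41 from a whole number, so some of its reads were shared with other genes.

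Complex IV, cytochrome c oxidase, reduces oxygen, and several of its nuclear subunits have a common form and a form used in few tissues. Of its 18 genes 15 were tested and 12 were positive. The 11 common forms were all positive, from 0.40 (Cox8a) to 0.78 (Ndufa4), with a median of 0.62. In 9 of the 11 both knockout libraries were higher without overlap (25.4% of all genes tested). The 4 tested genes of other forms had values of -1.82, -1.02, -0.11 and 0.74. Over the 15 genes the median was 0.60, the highest of the complexes, or 0.40 without WT 6 and 0.35 without KO 12. With a trend on gene length removed, as described further on, it was 0.169, below the 0.177 of complex III.

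Cox6a1 (gene 12861, chromosome 5, 115345652 to 115348958), the common form of subunit 6a, stood at 162 CPM in WT 1, 118 in WT 6, 193 in KO 9 and 259 in KO 12 (log2 fold change 0.69, SE 0.26, edgeR p 0.0283, adjusted p 0.413). Cox5a (gene 12858, chromosome 9, 57517328 to 57532427), a subunit on the matrix side, stood at 121, 85.4, 136 and 195 CPM in the same order (0.68, SE 0.27, edgeR p 0.0379, adjusted p 0.413). Both genes had knockout libraries above wild type, and their log2 fold changes were 0.48 and 0.45 without WT 6, and 0.47 and 0.41 without KO 12. Cox4i1, the regulatory subunit that binds nucleotides, stood at 196, 164, 229 and 287 CPM (0.52, SE 0.23, edgeR adjusted p 0.417), again without overlap.

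The highest level per length in complex IV was that of Cox8a (gene 12868, chromosome 19, 7215158 to 7217616), a small membrane subunit, at 417 and 342 FPKM in WT 1 and WT 6 and 459.9 and 486 FPKM in KO 9 and KO 12. Its groups did not overlap, yet WT 1 was nearer to KO 9 than to WT 6 (log2 0.40, SE 0.22, edgeR adjusted p 0.464, log2 0.22 without WT 6). Ndufa4 stood at 101.4, 54.5, 101.7 and 165 CPM, with WT 1 and KO 9 nearly equal (0.78, SE 0.36, edgeR adjusted p 0.423), and its log2 fold change was 0.40 without WT 6 and 0.39 without KO 12. Cox6b1, which lies at the interface of the dimer, stood at 106, 68.0, 105 and 158 CPM, so the groups overlapped at WT 1 and KO 9 (0.60, SE 0.30, edgeR adjusted p 0.436, and 0.31 without WT 6 or 0.28 without KO 12). Cox7a2 stood at 58.2, 36.9, 65.8 and 87.6 CPM (0.69, SE 0.28, edgeR p 0.0410) and Cox7b at 69.8, 43.7, 75.5 and 99.5 CPM (0.63, SE 0.28, edgeR p 0.0589), both with the knockout libraries higher. Without WT 6 their log2 fold changes were 0.40 and 0.33. Cox7c, Cox5b and Cox6c had values of 0.52, 0.53 and 0.62.

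The other forms were nearly all low, and their order of libraries differed from that of the common forms. Cox6a2 (gene 12862), the heart and skeletal muscle form, stood at 2 and 10.9 FPKM in WT 1 and WT 6 and at 2.10 and 3.77 FPKM in KO 9 and KO 12, far below the 246 to 485 FPKM of Cox6a1. Cox6b2 (gene 333182), the testis form, stood at 2.41, 11.4, 1.73 and 1.75 FPKM in the same order, against 150.4 to 313 FPKM for Cox6b1. In both genes WT 6 was the highest library. The other 3 libraries were close together for Cox6b2, and for Cox6a2 KO 12 stood between them and WT 6. Cox6b2 was the 1 subunit lower in knockout at an unadjusted p (log2 -1.82, SE 0.78, edgeR p 0.0486, adjusted p 0.416), and without WT 6 its value was -0.34. The value of Cox6a2, -1.02 (SE 0.78, edgeR adjusted p 0.559), became 0.60 without WT 6. The exons of Cox6a2 overlap those of Itgad, a gene of myeloid cells, and WT 6 also held the highest summed myeloid and globin markers (20.3 and 19.8 CPM), whose part in these values was not tested.

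Cox7a1, the muscle form of subunit 7a, stood at 0.61, 2.54, 1.03 and 3.78 FPKM, with overlapping groups (log2 0.74, SE 0.99, edgeR adjusted p 0.746), and turned to -0.53 without KO 12. Cox7a2l, a relative of subunit 7a, was the 1 abundant gene of this class, at 154, 189, 149 and 168 CPM. It did not share the pattern of the common forms, since WT 6 was its highest library and KO 9 its lowest (log2 -0.11, SE 0.22, edgeR adjusted p 0.835, and 0.05 without WT 6). Cox4i2, the form linked to low oxygen in lung, was at 0.07 to 0.08 FPKM in all 4 libraries. Ndufa4l2, a gene induced by HIF1, was at 0.05 to 0.40 FPKM, and Cox8b, a muscle form, was listed at 0 in WT 1, KO 9 and KO 12 and at 0.48 FPKM in WT 6.

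**Figure D3:**
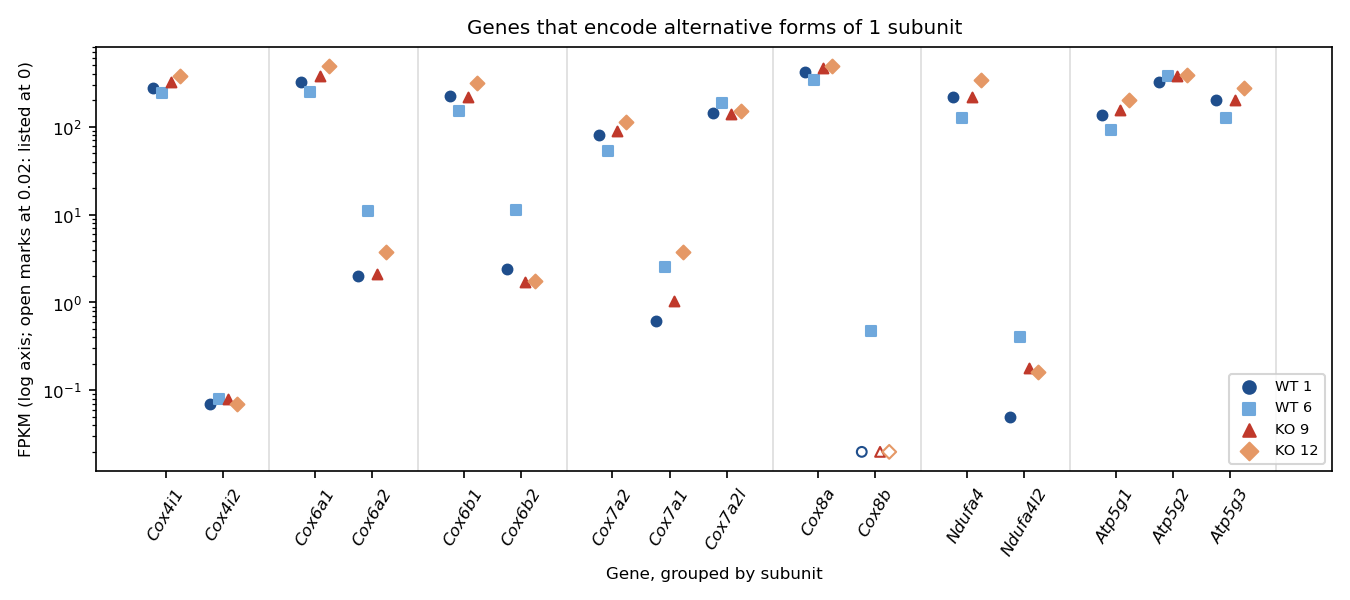
FPKM (vertical log axis, open marks placed at 0.02 for values listed at 0) of genes that encode alternative forms of 1 subunit or are related to it, in WT 1 (circle), WT 6 (square), KO 9 (triangle) and KO 12 (diamond). Common forms stand between about the levels of Cox7a2 and Cox8a with KO 12 highest. Cox6a2, Cox6b2, Cox7a2l, Cox8b and Ndufa4l2 have their highest value in WT 6.

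Complex V makes ATP with its soluble F1 head, turned by a ring of c subunits in the membrane. All 16 of its genes had positive values, the median was 0.52, and in 12 the groups did not overlap, each time with knockout higher (25.4% of all genes tested, which is also the share to set beside the counts for the head and the stalk). The 5 genes of the F1 head (Atp5a1, Atp5b, Atp5c1, Atp5d and Atp5e) had a median of 0.46 and no overlap. The 4 genes of the peripheral stalk (Atp5f1, Atp5h, Atp5j and Atp5o) had values from 0.41 to 0.54, with no overlap for 2 of them. The 4 small membrane subunits (Atp5j2, Atp5k, Atp5l and Atp5mpl) ran from 0.51 to 0.76. The median over complex V was 0.28 without WT 6 and 0.29 without KO 12.

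Atp5b (gene 11947, chromosome 10, 128083307 to 128090388), the catalytic beta subunit, had the highest level of all 85 genes, at 644 and 494 FPKM in WT 1 and WT 6 and at 756 and 834 FPKM in KO 9 and KO 12. In CPM it stood at 1210.1 and 879.6 in WT 1 and WT 6 and at 1425 and 1655 in KO 9 and KO 12. The knockout libraries were both higher (log2 0.56, SE 0.23, edgeR p 0.0435, adjusted p 0.415), and the value was 0.35 without WT 6. The alpha subunit gene Atp5a1, its partner in the head, had a smaller value of 0.28 at 851, 673, 871 and 981 CPM. Atp5k, the shortest of the 82 genes at 260 bases, encodes a small subunit that helps ATP synthase pair into dimers, and stood at 26.1, 9.41, 26.4 and 33.9 CPM. WT 6 was the low library there (0.76, SE 0.45, p 0.129). Atp5k was also the 1 subunit called in any fit, at a log2 fold change of 1.68 and an edgeR adjusted p of 0.0382 without WT 1, a fit that called 98 genes higher (0.765%) and 70 lower (0.546%) and in which WT 6 alone stands for wild type and is assumed to vary like the knockout pair.

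The c subunit is encoded by 3 genes whose mature proteins are the same and whose import sequences differ. Atp5g1 (gene 11951, chromosome 11, 96072793 to 96075694) stood at 106 CPM in WT 1, 66.9 in WT 6, 122 in KO 9 and 165 in KO 12 (log2 0.73, SE 0.29, edgeR p 0.0344, adjusted p 0.413, log2 0.44 without WT 6). Atp5g3 (gene 228033, chromosome 2, 73908447 to 73912464) stood at 139.5, 82.9, 138.9 and 202 CPM, so WT 1 and KO 9 were level (0.62, SE 0.31, edgeR adjusted p 0.437, log2 0.29 without WT 6 and 0.33 without KO 12). Atp5g2 (gene 67942, chromosome 15, 102662868 to 102671047) stood at 199.5, 223, 232 and 253 CPM, with knockout higher by a small step and WT 6 above WT 1 (0.20, SE 0.21, edgeR adjusted p 0.666, log2 0.12 without WT 1). In FPKM the order of the genes in WT 1 was Atp5g2 at 321, Atp5g3 at 201 and Atp5g1 at 136, and in KO 12 it was the same, at 385, 276 and 201. Atp5s (log2 -0.03, SE 0.46) was at 2.84 to 4.03 CPM in the 4 libraries.

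**Figure D4:**
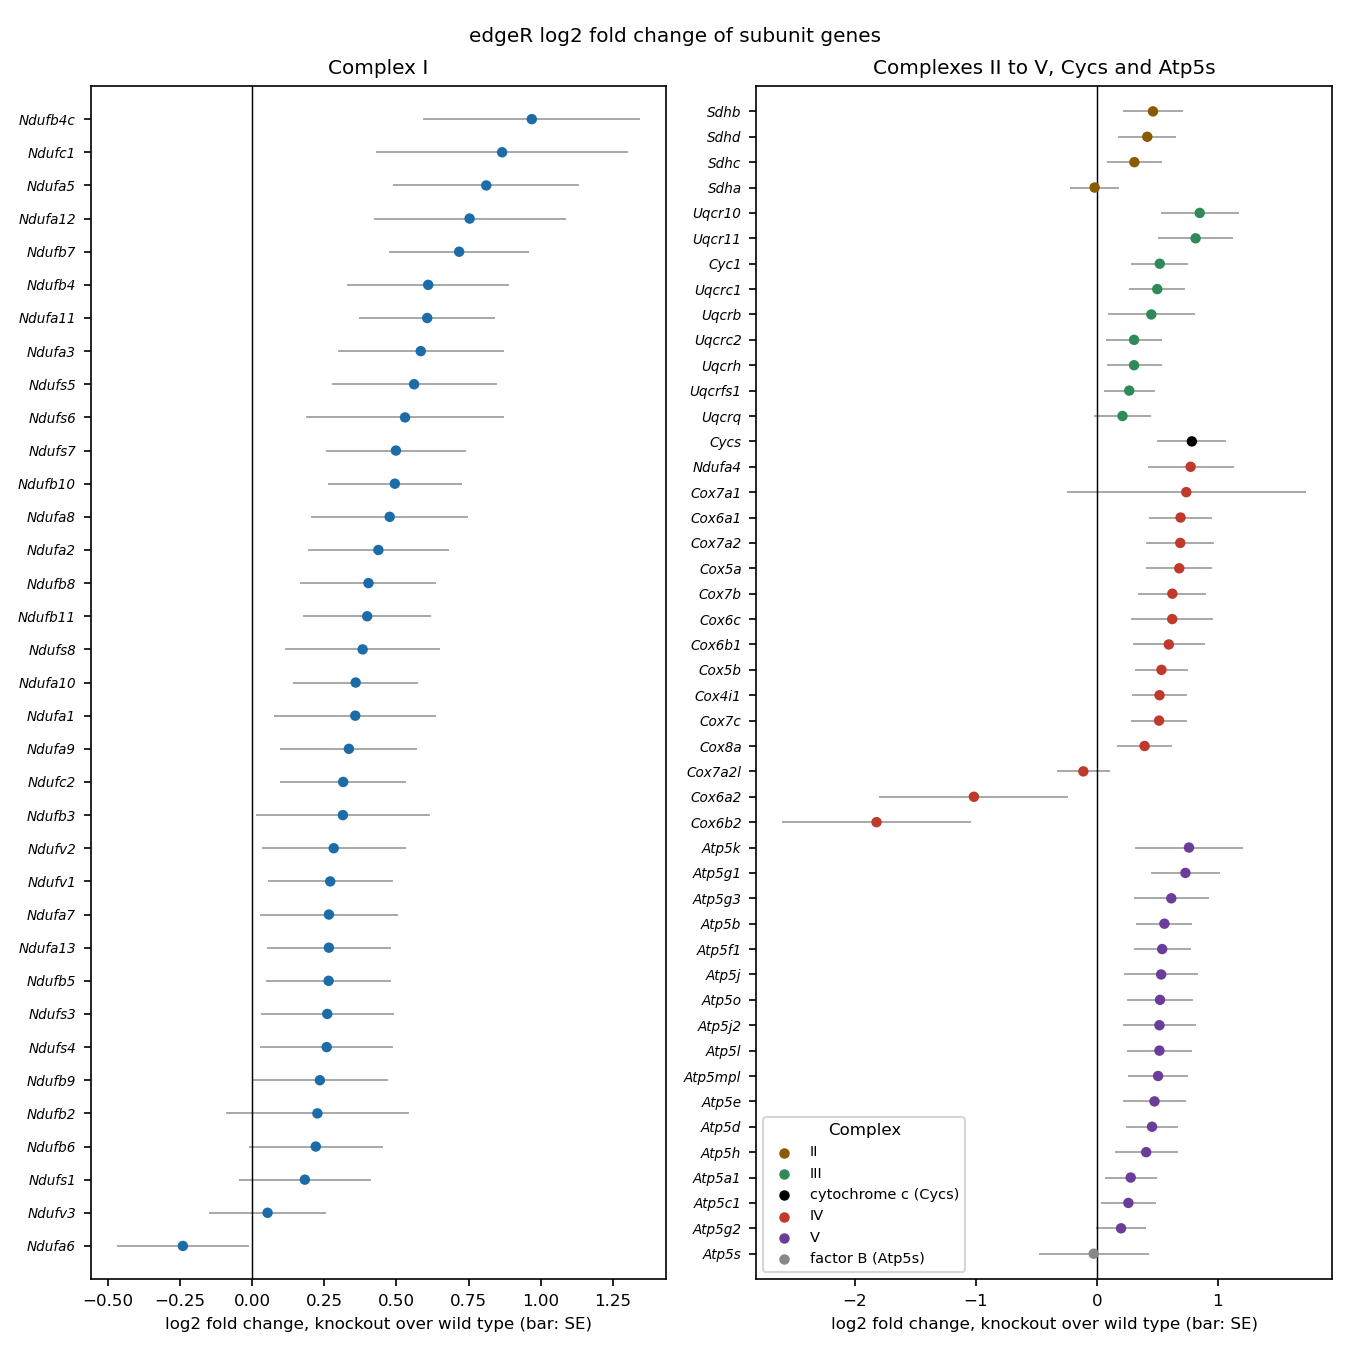
edgeR's log2 fold change, knockout over wild type (horizontal axis), with its SE as a bar, for the subunit genes tested that are reported by name, by complex and ordered by value. Only Ndufa6, Sdha, Cox7a2l, Cox6a2, Cox6b2 and Atp5s lie left of 0, and the common forms of complex IV lie between 0.40 and 0.78.

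Most of these genes are short, and over all genes tested the fold change ran with gene length, higher for short genes. The median effective length (the length over which reads can start) was 663 bases for the 82 genes and 2828 bases for all genes tested, and 58 of the 82 (70.7%) had at most 1000 bases, against 7.3% of all genes. The median log2 fold change of all genes was 0.40 up to 500 bases, 0.37 from 500 to 1000, 0.22 from 1000 to 2000, near 0 (0.0020) from 2000 to 4000, -0.24 from 4000 to 8000 and -0.48 above 8000 bases. In the same ranges the subunits had medians of 0.57 (22 genes), 0.42 (36 genes), 0.31 (19 genes) and 0.28 (5 genes), and none was longer than 4000 bases. The subunits were thus above the median of their range in each of these 4 ranges, and 62 of the 82 genes lay above the median of their own range. The share of subunits with both knockout libraries higher was 54.5%, 66.7%, 68.4% and 60% in the 4 ranges, where all genes had 45.8%, 47.6%, 39.5% and 24.3%. Among the 82 genes Spearman's rho of fold change with length was -0.41, and over the 12816 genes it was -0.40. These are descriptions across genes, which share the 4 libraries and are not independent replicates.

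**Figure D5:**
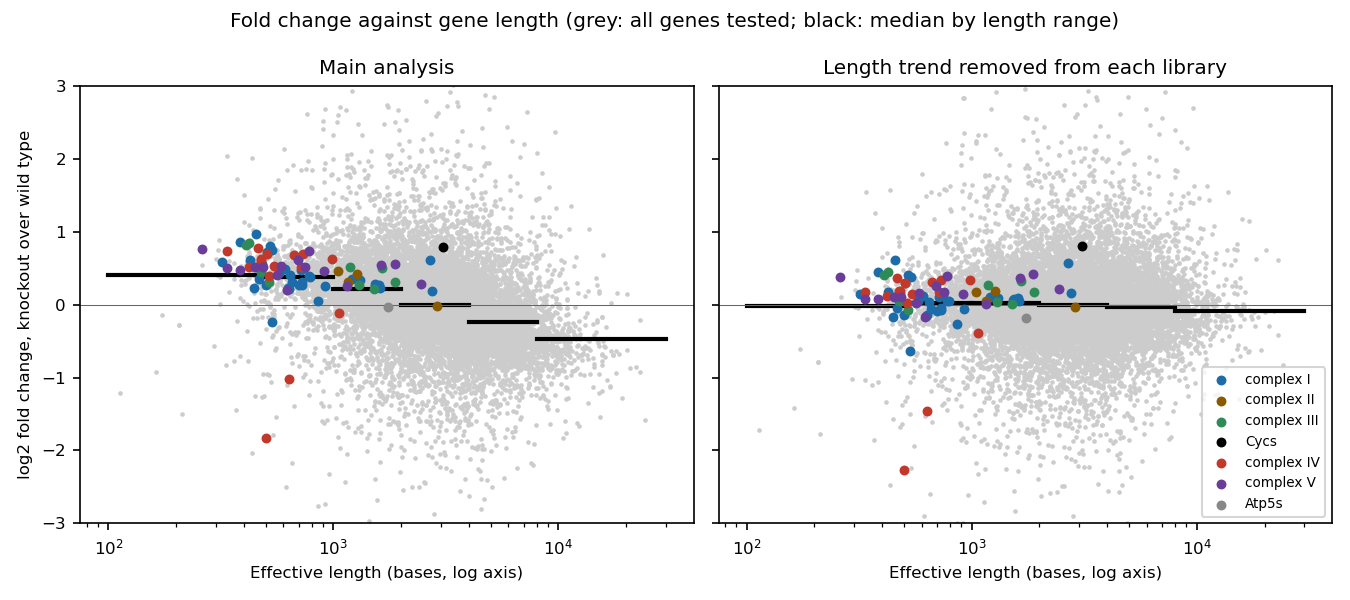
Log2 fold change, knockout over wild type (vertical axis), against effective length in bases (horizontal log axis), with all genes tested in grey, subunits coloured by complex and black bars at the median of all genes in each length range, before (left) and after (right) a trend on length was removed from each library. The black bars fall from 0.40 to -0.48 on the left and lie near 0 on the right, where most subunits move close to 0 and Cycs stays at 0.80.

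When a smooth trend on length was removed from each library, the median of the subunits was 0.11 in place of 0.46, and 63 of the 82 were positive (49% of all genes). By complex the medians were 0.07 for complex I, 0.11 for II, 0.18 for III, 0.17 for IV and 0.15 for V. At an unadjusted p under 0.05 there were 2 genes higher (4.94% of all genes) and 2 lower (5.41% of all genes), named here after their values were seen. Cycs (0.80, edgeR p 0.0300) and Ndufa11 (0.57, edgeR p 0.0308) were higher, and Ndufa6 (-0.64, edgeR p 0.0228) and Cox6b2 (-2.27, edgeR p 0.0282) lower, each at an adjusted p of 0.412 or above. Cycs was the 1 gene of the 82 whose signed value was higher than before, while negative values such as that of Ndufa6, -0.24 before, became more negative. Ndufa11, an accessory subunit that helps join complex I to complex III, is a long one too, at 2675 bases. Its levels were 37.7 and 38.0 CPM in WT 1 and WT 6 and 48.3 and 67.0 CPM in KO 9 and KO 12, and its exons overlap those of Vmac.

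The libraries behind the remaining difference changed with that trend. The median log2 CPM difference from WT 1 was then -0.28 in WT 6, -0.04 in KO 9 and 0.02 in KO 12. Over all genes in that fit it was -0.08, -0.06 and -0.005. WT 6 thus remained below the other libraries over the subunits, while KO 12 no longer stood above WT 1. With the trend removed and WT 6 left out, a fit chosen after the data were seen, the median over the 82 genes was -0.015 and it lay between -0.06 and 0.06 for each complex. The subunits are among the short genes from which the trend was estimated, so the trend also takes up part of any difference of their own. For genes of this size, a difference tied to length and one tied to genotype cannot be told apart in these libraries.

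Genes that assemble or feed the chain were read from 5 lists, and edgeR called 0 of their genes at an adjusted p under 0.05. Of 17 tested assembly factors of complex I, 14 had a positive log2 fold change, 6 (35.3%, against 25.4% of all genes tested) had both knockout libraries higher and the median was 0.35. Of 37 tested assembly factors of complexes II to V the numbers were 30, 17 (45.9%) and 0.23. With the length trend removed these medians were 0.10 and 0.01.

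Over the subunits and the 5 lists, 2 assembly factors had the smallest p-values. Cox17 (gene 12856, chromosome 16, 38346983 to 38352763), the copper chaperone that supplies complex IV, stood at 30.5 CPM in WT 1, 24.1 in WT 6, 56.9 in KO 9 and 59.2 in KO 12. The groups were well apart and each pair was close (log2 1.09, SE 0.22, edgeR p 0.00136, adjusted p 0.275), and DESeq2 gave an adjusted p of 0.0101. Lyrm7 (gene 75530, chromosome 11, 54826866 to 54860921), which holds the Rieske protein before it is inserted into complex III, stood at 14.2 CPM in WT 1, 13.6 in WT 6, 4.29 in KO 9 and 4.75 in KO 12. Its groups were apart in the other direction (log2 -1.62, SE 0.29, edgeR p 0.000633, adjusted p 0.261), and DESeq2 gave an adjusted p of 0.00573. Both directions held with any 1 library left out, where Cox17 had values from 0.93 to 1.27 and Lyrm7 from -1.69 to -1.52, and with the length trend removed, at 0.70 and -1.75. The client of Lyrm7, Uqcrfs1, had a log2 fold change of 0.27.

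Among complex I assembly factors, Ecsit stood at 33.3, 25.4, 37.6 and 50.4 CPM in WT 1, WT 6, KO 9 and KO 12 (log2 0.58, SE 0.25, edgeR p 0.0496, adjusted p 0.416) and Ndufaf3 at 5.24, 4.40, 7.60 and 9.09 CPM (0.79, SE 0.34, edgeR p 0.0498, adjusted p 0.416). Both had higher values in the knockout libraries, and without KO 12 the log2 fold change of Ecsit was 0.36.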

How the data were processed

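The 4 libraries were made from total RNA (TRIzol) and run on the Illumina HiSeq platform, per the labels' protocols. Bowtie2, RSEM and the builds GRCm38.p6 and mm10 are named, per the submitters' processing notes, with versions not given in the sources used here. A deposited table holds an expected count per gene and library, made by the authors, in which RSEM shares reads that match several genes. It also holds an expression value whose header gives no unit, taken here as FPKM computed by the authors, because count divided by value was proportional to gene length. Its 4 group-average columns were left out.

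Expected counts were rounded, filtered with filterByExpr (minimum count 10, leaving 12816 of 18560 genes) and scaled by TMM (factors 1, 1.056, 0.998 and 0.949). The genotypes were compared in R 4.3.3 with edgeR 4.0.16 (robust quasi-likelihood F test, two-sided, on limma 3.58.1), adjusted by Benjamini-Hochberg over all genes at a threshold of 0.05. Effective length is the median over libraries of the length implied by count and FPKM. The length trend is a loess curve (span 0.5) on log2 effective length, fitted in each library and entered as an offset. Alternatives were other scalings and filters, DESeq2 1.42.0, limma-voom, the length trend and leaving out each library. The fit was tested on simulated data. Log2 CPM differences between libraries used a prior count of 2. With 2 libraries in each group, each gene had 2 residual degrees of freedom, and the fit also borrowed information on spread from all genes tested.

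Gene coordinates and promoter windows come from RefSeq (GRCm38.p6), in which 18424 of 18560 gene IDs matched. Named genes were, in each complex, the 2 of smallest p, the lowest fold change and the highest FPKM, together with Cycs, Cyc1, genes of alternative forms, the 2 of smallest p in each related list, and Setd2. Other genes named with values, among them Ndufb4, Ndufa11, Atp5a1, Atp5k, Uqcrfs1 and Nrf1, were chosen after their values were seen. A few listed genes are not reported here. Members and lists were chosen with earlier results of these data known, so no test over the members was made. Expected counts of 12 of the 85 genes (14.1%) lay more than 0.005 from a whole number in some library, against 41.7% of genes tested, a sign that their reads were shared. The exons of 24 of 84 genes found in GENCODE M21 overlap those of another coding gene, and no source used here states whether counting used strand.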

Additional observations from a re-analysis of the deposited data

How the results depend on the processing

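Only 4 libraries were measured, and 3 of the 85 genes had too few counts to be tested. Under 13 alternatives that each changed 1 choice, DESeq2 and limma-voom included, the median log2 fold change of the 82 subunits stayed positive. Scaling by library size alone moved it to 0.38, and the median of all genes to -0.08. The genes called higher were 1 in the main analysis, 48 without a filter on low counts, 89 in DESeq2 and 0 to 98 with 1 library left out. Genes called lower were 0, and 33 without a filter, 97 in DESeq2, 1 with the length trend removed and 0 to 70 with 1 library left out. Subunits called higher were 0 to 1 with 1 library left out. With the length trend removed the medians were 0.112 over all subunits, 0.070 for complex I, 0.111 for II, 0.177 for III, 0.169 for IV and 0.155 for V. With 1 library left out the median over all subunits ran from 0.215 to 0.652, complex I from 0.148 to 0.571, II from 0.171 to 0.542, III from 0.187 to 0.654, IV from 0.351 to 0.834 and V from 0.280 to 0.765. With both changes together, chosen after the data were seen, the medians over all subunits and over complexes I, II, III, IV and V were 0.244, 0.166, 0.241, 0.474, 0.242 and 0.365 without WT 1. They were -0.015, -0.026, -0.062, -0.031, 0.059 and -0.024 without WT 6, 0.152, 0.089, 0.080, 0.217, 0.261 and 0.175 without KO 9, and 0.068, 0.024, 0.065, 0.136, 0.192 and 0.139 without KO 12. Of 505 values for 39 named genes, 6 changed sign. Atp5g2 was at -0.165 with the length trend removed. With 1 library left out Sdha ran from -0.078 to 0.066 (0.022 without WT 1, 0.066 without KO 9), Cox6a2 from -1.759 to 0.604 and Cox7a2l from -0.252 to 0.045 (both highest without WT 6), and Cox7a1 from -0.531 (without KO 12) to 2.029. Lyrm7 (-1.605, edgeR adjusted p 0.0347) and Cox17 (1.097, edgeR adjusted p 0.0460) passed without a filter, and both passed in DESeq2 (-1.62 and 1.08). The cause of these changes was not tested. In fits with 1 library of a genotype, that library is assumed to vary like the other pair. No paired analysis was possible because the genotypes have no replicate number in common.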

Other observations

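Enzymes of pyruvate entry and the citric acid cycle, which supply the chain with NADH and succinate, also had positive values for most genes, and they are longer genes (median effective length 2196 bases). Of the 20 tested, 18 had a positive log2 fold change of knockout over wild type, 14 (70%, against 25.4% of all genes tested) had KO 9 and KO 12 above WT 1 and WT 6, and the median was 0.40, or 0.25 with the length trend removed. None was called by edgeR (0 of 20 at an adjusted p under 0.05, 1 higher at an unadjusted p under 0.05, against 6.23% of all genes). Idh3a, a subunit of the NAD-dependent isocitrate dehydrogenase, stood at 73.7 and 42.1 CPM in WT 1 and WT 6 and at 91.1 and 104 CPM in KO 9 and KO 12 (0.75, SE 0.29, edgeR p 0.0330, adjusted p 0.413). Mdh2, mitochondrial malate dehydrogenase, stood at 360.2, 270.3, 414 and 496 CPM in the same order (0.53, SE 0.23, edgeR p 0.0543, adjusted p 0.417). WT 6 was the lowest library in both. Without WT 6 their log2 fold changes were 0.41 and 0.34.

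Genes that copy and transcribe mitochondrial DNA had 9 of 14 positive and a median of 0.13. Both knockout libraries were higher for 5 (35.7%, against 25.4% of all genes tested) and lower for 2 of the 14 (against 24.3% of all genes). Top1mt, the mitochondrial topoisomerase, stood at 10.6, 7.38, 13.8 and 21.4 CPM in WT 1, WT 6, KO 9 and KO 12 (0.97, SE 0.33, edgeR p 0.0186, adjusted p 0.412). Mterf3, a repressor of mitochondrial transcription, stood at 31.6, 41.2, 24.7 and 23.8 CPM (-0.59, SE 0.23, edgeR p 0.0336, adjusted p 0.413), so the knockout libraries were lower. Without KO 12 the log2 fold change of Top1mt was 0.63, and without WT 6 that of Mterf3 was -0.38. Of 10 regulators of respiratory chain genes 4 were positive and the median was -0.07, but these are long genes (median effective length 3884.5 bases). With the length trend removed their median was 0.09, and that of the genes that copy and transcribe mitochondrial DNA was 0.08. Nrf1, whose letters were counted in the promoter windows, had a log2 fold change of 0.19 (SE 0.21, edgeR adjusted p 0.695). Pprc1, a coactivator of the PGC-1 family, stood at 113, 65.3, 121 and 141 CPM (0.56, SE 0.29, edgeR adjusted p 0.441, and 0.22 without WT 6). Esrra, an orphan receptor that drives such genes, stood at 16.9, 15.1, 19.0 and 28.3 CPM (0.56, SE 0.27, edgeR adjusted p 0.424, and 0.25 without KO 12).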
